A study of Mus musculus with 11 samples.

Results

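The integrated stress response is the programme by which a cell slows protein synthesis and raises the means of making and importing amino acids. It was followed here through 36 genes in otospheres, the floating spheres grown from the cochlear sensory epithelium (CSE), in freshly dissected CSE and in embryonic stem cells (ESCs). The genes were taken by symbol. All 36 of them were found among the 20284 named genes of the array, and the brightest probe stood for each gene (27 genes had 1 probe and 9 had 2). All 36 passed the filter on dim probes.

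In this response, kinases that sense a shortage of amino acids, unfolded protein in the endoplasmic reticulum (ER), loss of heme or viral RNA phosphorylate the translation factor eIF2. General translation then falls, whereas the mRNA of the transcription factor ATF4 is translated better. ATF4 and its partners of the C/EBP family activate genes for amino acid synthesis, amino acid transport and redox balance, together with genes that end the response. The ER has further stress branches of its own, which raise chaperones such as HSPA5 and lead to splicing of Xbp1 mRNA.

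Otospheres were secondary solid spheres at passage 1 from ICR mice on postnatal day 1, kept in serum-free DMEM/F12 with N2, B27, bFGF, IGF1 and heparan sulfate for 4 to 5 days and, after dissociation, for 4 to 5 days more. CSE was the same tissue of ICR mice on postnatal day 1, not cultured, with 20 cochleae of 10 mice pooled. ESCs were the lines G4-2 (ES1) and D3 (ES2) at passage 13, kept without feeder cells in serum, nonessential amino acids, 2-mercaptoethanol and LIF, so culture medium and line differ along with the cell type. Single-colour arrays had been hybridized with 6 otosphere, 3 CSE and 2 ESC samples on 2 slides. Slide 1 held ES1, OS1 to OS3, CSE1 and CSE2, and slide 2 held ES2, OS4 to OS6 and CSE3. OS4 and OS5 differed by less than the noise between spots of one probe (SD ratio 0.473). OS1 and OS2 did so by the robust SD (ratio 0.946) but not by the plain SD (1.09), against ratios of 1.95 or more for the plain SD of the other pairs of a group. Each of these pairs was counted as 1 sample, which left 4 otosphere, 3 CSE and 2 ESC samples. For the 36 genes OS1 and OS2 were not alike, since OS1 was above OS2 for 32 of them, against 48.2% of all kept probes, with a median difference of 0.26 and at most 0.72 (Slc6a9). The labels do not say whether the samples of a group came from separate cultures, so the p-values measure the spread between these samples, which may be technical.

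The arrays had 55.1% to 71.6% of their spots well above background, and no spot was saturated. Markers of other cells differed between the groups. The mean log2 signal of 7 erythroid markers was 10.8 to 11.5 in CSE, 5.42 to 5.78 in otospheres and 5.92 to 7.01 in ESCs, 4 of the 7 were not well above background on any otosphere array, and 5 were lower in otospheres than in CSE. Also lower in otospheres were 4 of 6 macrophage, 3 of 6 endothelial and 6 of 8 neuron and glia markers, whereas Mbp of the last list was higher. Of the markers of the epithelium itself, 9 of 11 supporting cell genes and 4 of 10 hair cell genes were lower in otospheres than in CSE. In tissue samples, fewer cells of a type and less RNA per cell cannot be told apart.

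Set against CSE, otospheres had 11 of the 36 genes higher and 0 lower at an adjusted p under 0.05. Among all 18565 genes measured, 7.17% were higher and 10.3% were lower. The difference was above 0 in 33 of the 36 genes, with a median of 1.34 on the log2 scale against -0.01 over all genes. The 4 otosphere samples all lay above the 3 CSE samples for 18 of the 36 genes, an order found in 14.1% of genes (18.9% of genes had all otosphere samples below CSE, and 0 of the 36 did). Without OS3, 22 of the 36 were higher, the further 11 being Atf4, Ddit3, Asns, Shmt2, Mthfd2, Slc7a1, Slc1a5, Sesn2, Fgf21, Cth and Pck2. Without OS4-5, CSE1 or CSE2, the numbers were 7, 5 and 5. The calls over all probes moved too. With all samples 2321 probes were higher, without OS3 2629, and without OS4-5, CSE1 or CSE2 1412, 1281 and 1534. With OS1 and OS2 as separate samples, a choice made after the data were seen, 13 were higher and 0 lower, the further genes being Ddit3 (1.41, adjusted p = 0.0499) and Mthfd2 (2.22, adjusted p = 0.0409). Trib3, Chac1, Aldh1l2, Cebpg and Nupr1 were past the threshold in every one of the 19 alternative fits.

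**Figure D1:**
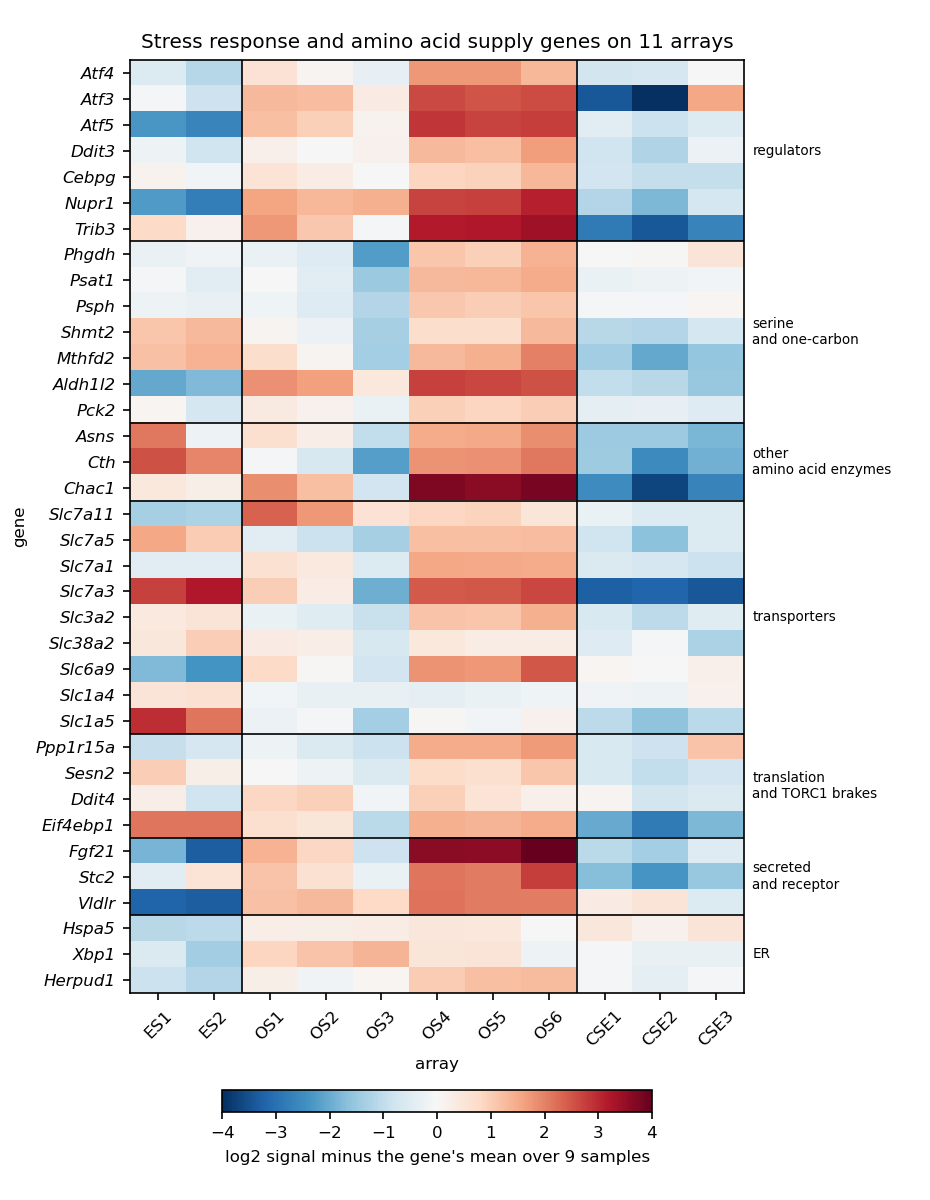
Signal of the 36 genes (rows, grouped by role) on the 11 arrays (columns), as log2 signal relative to the average of that gene across the 9 samples. Colours end at -4 and 4. The arrays OS4 to OS6 are red for most genes, and Hspa5 and Slc1a4 are nearly even across otospheres and CSE.

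The promoters were searched for the letters that ATF4 with a C/EBP partner is known to bind, the C/EBP-ATF response element, TGATGNAA on either strand (TTNCATCA when read in reverse). In the 250 bases before the RefSeq start sites (GRCm38.p6), 9 of the 30 genes with a promoter sequence held it (Asns, Atf3, Chac1, Fgf21, Herpud1, Nupr1, Pck2, Slc7a11 and Vldlr), against 3.91% of the 27025 genes searched. The search left out 1 chromosome. The genes had been listed for this response, so the comparison with all genes is not independent of how the list was made. The ER stress element, CCAAT and CCACG with 9 bases between them on either strand, was found in Hspa5 alone among the 30, and in 0.13% of genes. Only this spacing was searched, so the other genes may hold other forms of the element. These 30 genes had 36 promoter stretches in all, since 5 of them had more than 1 start site, and Vldlr held the motif in 1 of its 2. No stretch held both motifs, so the matches did not overlap. Of the 9 genes with the first motif 4 were higher in otospheres than in CSE, and of the 21 without a match in these 250 bases 4 were. Those 21 genes may hold the motif elsewhere, which was not searched. A match is a description of the letters and does not show that the factor was bound. Aldh1l2, Slc7a5, Slc7a3, Slc1a5, Cth and Eif4ebp1 were not searched. The stretches below are Chac1 (chr2:119350992-119351241, plus strand), Nupr1 (chr7:126625471-126625720, minus strand), Asns (chr6:7693210-7693459, minus strand), Slc7a11 (chr3:50443614-50443863, minus strand), which holds the motif at 2 places, and Hspa5 (chr2:34771840-34772089, plus strand) which is shown for the other element. They read 5′ to 3′ on the gene's strand and end at the base before the start site, with the motif in capitals.
Chac1: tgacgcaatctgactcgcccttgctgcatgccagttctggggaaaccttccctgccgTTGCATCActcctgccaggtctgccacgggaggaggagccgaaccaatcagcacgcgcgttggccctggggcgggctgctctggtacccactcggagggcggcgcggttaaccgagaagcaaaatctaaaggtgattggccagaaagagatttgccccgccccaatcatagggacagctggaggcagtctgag
Nupr1: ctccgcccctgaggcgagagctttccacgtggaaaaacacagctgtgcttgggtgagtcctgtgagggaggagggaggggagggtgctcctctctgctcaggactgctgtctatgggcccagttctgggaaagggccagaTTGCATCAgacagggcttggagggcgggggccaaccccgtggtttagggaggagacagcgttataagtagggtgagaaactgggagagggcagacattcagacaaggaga
Asns: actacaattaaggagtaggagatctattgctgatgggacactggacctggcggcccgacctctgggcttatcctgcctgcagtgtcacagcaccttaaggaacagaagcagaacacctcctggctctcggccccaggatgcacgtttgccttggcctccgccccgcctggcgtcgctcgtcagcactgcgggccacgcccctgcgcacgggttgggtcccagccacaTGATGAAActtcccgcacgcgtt
Slc7a11: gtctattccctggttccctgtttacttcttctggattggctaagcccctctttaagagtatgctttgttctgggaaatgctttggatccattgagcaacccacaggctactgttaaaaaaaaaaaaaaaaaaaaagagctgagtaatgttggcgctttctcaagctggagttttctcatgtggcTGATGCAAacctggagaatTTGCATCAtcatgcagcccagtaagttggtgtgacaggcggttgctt
Hspa5: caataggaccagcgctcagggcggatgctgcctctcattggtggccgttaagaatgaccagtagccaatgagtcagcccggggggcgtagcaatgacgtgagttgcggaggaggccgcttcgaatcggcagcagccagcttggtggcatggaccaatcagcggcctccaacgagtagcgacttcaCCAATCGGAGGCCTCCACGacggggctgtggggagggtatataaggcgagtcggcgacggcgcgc

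The regulators held 4 of the 11 higher genes, Atf5, Cebpg, Nupr1 and Trib3, of 7 measured. Values below are log2 normalized signals, with the otosphere samples in the order OS1-2, OS3, OS4-5 and OS6. Trib3, a pseudokinase that binds and restrains ATF4, read 12.86, 11.42, 14.64 and 14.86 in the otosphere samples, 8.62, 8.08 and 8.80 in CSE and 12.23 and 11.62 in ESCs. Otospheres were 30.9-fold higher than CSE with no overlap (4.95 ± 0.75 (SE), adjusted p = 0.00367), and within the otospheres OS3 was lowest and OS4-5 and OS6 were highest. Nupr1, a small stress-induced chromatin protein, read 14.26, 14.22, 15.53 and 15.94 in the otosphere samples, 11.66, 11.02 and 12.11 in CSE and 10.56 and 10.04 in ESCs. The difference from CSE was 3.39 ± 0.47 (SE), adjusted p = 0.00226, and OS1-2 and OS3 lay close together below the other two. Cebpg, the C/EBP partner of ATF4, read 9.44, 9.004, 9.91 and 10.34 in the otosphere samples, 8.25, 8.05 and 8.07 in CSE and 9.16 and 8.91 in ESCs. It was higher than in CSE by 1.55 ± 0.29 (SE), adjusted p = 0.0102, the CSE samples lying within a narrow range.

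Atf5, an ATF4 relative that is also controlled at translation, read 15.47, 14.53, 17.17 and 17.15 in the otosphere samples, 13.95, 13.55 and 13.86 in CSE and 12.07 and 11.76 in ESCs. The difference was 2.30 ± 0.60 (SE), adjusted p = 0.042. Its adjusted p lay between 0.055 and 0.119 when any one sample other than OS3 was left out, and was 0.0543 with a normexp offset of 50. Ddit3, which encodes the late stress factor CHOP, read 9.60, 9.65, 10.74 and 11.17 in the otosphere samples, 8.68, 8.30 and 9.25 in CSE and 9.30 and 8.69 in ESCs. All otosphere samples were above CSE, but the difference of 1.54 ± 0.43 (SE), adjusted p = 0.0515 missed the threshold. Without OS1-2 its adjusted p was 0.0413, without OS3 0.0383 and with slide as a block 0.0385.

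Atf4 mRNA itself read 16.17, 15.52, 17.57 and 17.18 in the otosphere samples, 15.09, 15.16 and 15.82 in CSE and 15.30 and 14.71 in ESCs. OS3 lay below CSE3, and the difference of 1.25 ± 0.47 (SE), adjusted p = 0.147 was not past the threshold (without OS3 1.61, adjusted p = 0.0346). The second Atf4 probe, which was dimmer, read 11.06, 10.35, 11.70 and 11.81 in the otosphere samples, 9.37, 10.10 and 10.01 in CSE and 11.06 and 10.33 in ESCs. It had no overlap between otospheres and CSE and passed narrowly (1.40 ± 0.38 (SE), adjusted p = 0.0481). Atf3, a factor induced by many kinds of stress, was 11.48 ± 1.10 in otospheres, 7.82 ± 3.05 in CSE and 9.33 ± 0.54 in ESCs (mean ± SD, n = 4, 3 and 2). The CSE samples themselves disagreed on it, with 6.39 and 5.74 in CSE1 and CSE2 and 11.31 in CSE3. Without CSE3, the difference of Atf3 moved from 3.66 (adjusted p = 0.103) to 5.41 (adjusted p = 0.0038).

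**Figure D2:**
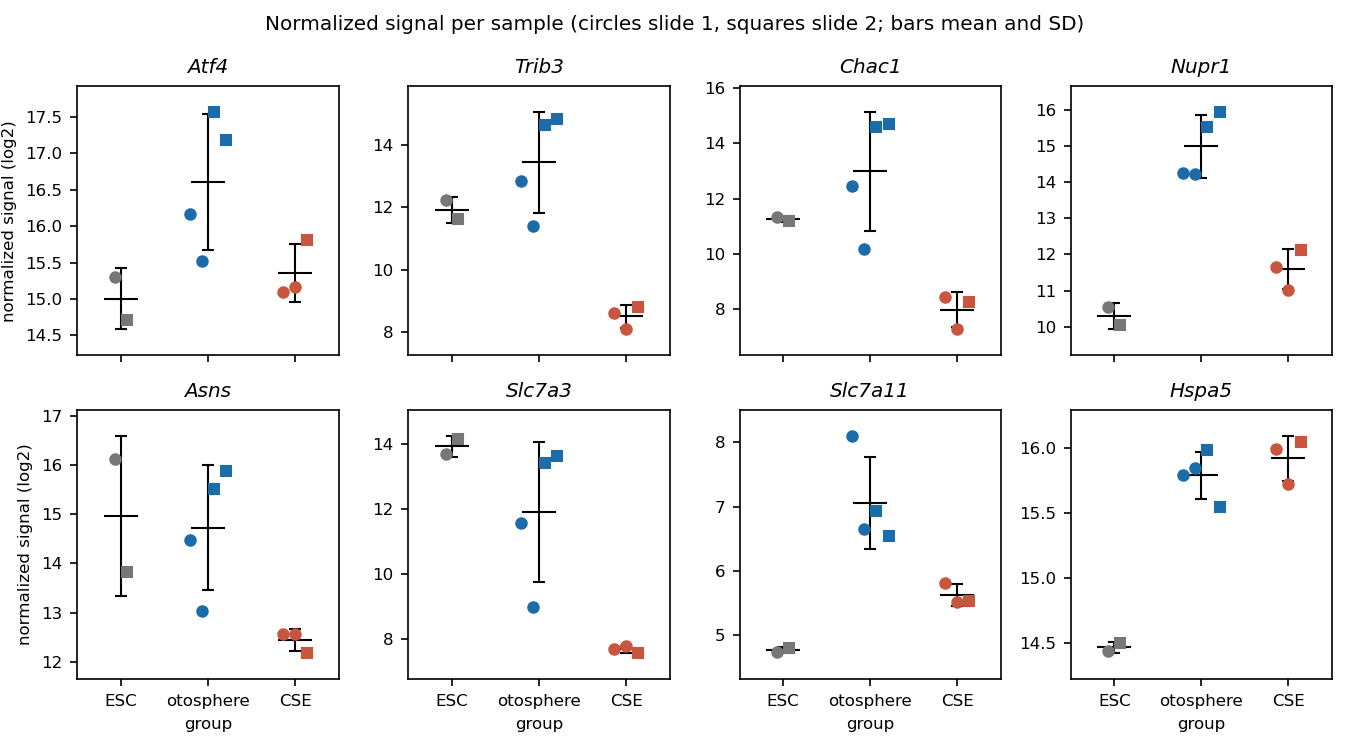
Log2 normalized signal of 8 genes in each of the 9 samples by group, with circles for slide 1, squares for slide 2, and a bar with whiskers for the group's mean and SD. Each panel has its own axis, which does not start at 0. The squares of the otospheres lie above the circles for Atf4, Trib3, Chac1, Nupr1, Asns and Slc7a3 but not for Slc7a11 or Hspa5.

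Of the 3 enzymes of amino acid and glutathione metabolism outside the serine pathway, 1 was higher in otospheres. Chac1, which breaks down glutathione and is a sensitive readout of the response, had the largest difference of all 36 genes. It read 12.46, 10.16, 14.61 and 14.72 in the otosphere samples, 8.41, 7.25 and 8.25 in CSE and 11.34 and 11.17 in ESCs. Otospheres were 32.5-fold higher than CSE (5.02 ± 0.99 (SE), adjusted p = 0.0128), although their own range of 4.55 was wide. Asns, asparagine synthetase, read 14.48, 13.04, 15.52 and 15.87 in the otosphere samples, 12.57, 12.57 and 12.18 in CSE and 16.12 and 13.82 in ESCs. The otosphere samples were all above CSE, and the difference of 2.28 ± 0.72 (SE), adjusted p = 0.0837 was not past the threshold, which it passed without OS3 (2.84, adjusted p = 0.0189). ES1 and ES2, which differ in both line and slide, were 2.29 apart on this gene. Cth, which makes cysteine from cystathionine, was 9.29 ± 2.02 in otospheres, 6.97 ± 0.57 in CSE and 11.19 ± 0.42 in ESCs. OS3 lay among the CSE samples, and the difference was 2.31, adjusted p = 0.183.

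Of the 7 serine and one-carbon genes, 1 was higher in otospheres than in CSE. It was Aldh1l2, the mitochondrial enzyme that oxidizes formyl-tetrahydrofolate, which read 9.30, 7.98, 10.27 and 10.12 in the otosphere samples, 6.59, 6.46 and 6.04 in CSE and 5.52 and 5.78 in ESCs. The difference was 3.05 ± 0.50 (SE), adjusted p = 0.00502, and OS3 was 1.39 above the highest CSE sample. The synthesis of serine from a glycolytic intermediate takes 3 steps, and none of its enzymes passed the test. Phgdh, the first of them, read 13.42, 11.58, 14.83 and 15.20 in the otosphere samples, 13.83, 13.87 and 14.34 in CSE and 13.55 and 13.66 in ESCs. The 95% interval of its difference was -1.96 to 1.44, with OS3 far below CSE and OS4-5 and OS6 above it. Psat1, the aminotransferase of the second step, read 13.91, 12.66, 15.45 and 15.64 in the otosphere samples, 13.87, 13.95 and 14.03 in CSE and 14.09 and 13.74 in ESCs. It showed the same order of samples, with an interval of -0.99 to 1.92. Psph, the phosphatase of the last step, was 12.58 ± 1.11 in otospheres, 12.40 ± 0.08 in CSE and 12.18 ± 0.08 in ESCs, with an interval of -0.98 to 1.34. CSE varied little on the brightest probes of Psat1 and Psph (SD 0.08 on both), so nearly all of the spread on them came from the otospheres. On the dimmer second probes the SD of CSE was 0.45 for Psat1 and 0.08 for Psph. Mthfd2 and Shmt2, of the mitochondrial folate pathway, differed by 2.26, adjusted p = 0.0694 and 1.15, adjusted p = 0.244. Pck2, the mitochondrial enzyme that makes phosphoenolpyruvate, differed by 0.89, adjusted p = 0.134, with all otosphere samples above CSE. In the log2 table deposited by the authors the Pck2 difference was 0.09, adjusted p = 0.839.

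Of the 9 amino acid transporter genes, 2 were higher in otospheres than in CSE. Slc7a3, a carrier of cationic amino acids such as arginine, read 11.59, 8.99, 13.42 and 13.64 in the otosphere samples, 7.70, 7.79 and 7.58 in CSE and 13.70 and 14.17 in ESCs. Otospheres were 18.62-fold higher than CSE (4.22 ± 0.97 (SE), adjusted p = 0.0252), with OS3 1.20 above the highest CSE sample. The other arginine carrier, Slc7a1, was 13.46 ± 0.98 in otospheres, 12.02 ± 0.15 in CSE and 12.31 ± 0.002 in ESCs, a difference of 1.45, adjusted p = 0.0843. Slc7a11, the cystine side of the cystine/glutamate exchanger, read 8.10, 6.64, 6.93 and 6.53 in the otosphere samples, 5.81, 5.51 and 5.53 in CSE and 4.73 and 4.79 in ESCs. It was higher by 1.44 ± 0.35 (SE), adjusted p = 0.0316, and here OS1-2 was highest, which set it apart from the other genes past the threshold. It was well above background on 2 of the 3 CSE arrays, and its difference varied with the background treatment, being 1.03 (adjusted p = 0.0639) with a normexp offset of 50 and 2.40 (adjusted p = 0.0196) with 75th percentile scaling. The adjusted p of Slc7a3 and Slc7a11 was over 0.05 without OS4-5 or any one CSE sample (0.066 to 0.110), and for Slc7a3 it was 0.0507 without OS1-2.

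Slc7a5, the light chain of the large neutral amino acid transporter, read 9.46, 8.77, 11.32 and 11.35 in the otosphere samples, 9.31, 8.48 and 9.55 in CSE and 11.65 and 11.12 in ESCs. OS1-2 and OS3 lay within the CSE range and OS4-5 and OS6 near the ESC level, and the interval of the difference was -0.34 to 2.56. The dimmer second Slc7a5 probe did not show this split. It read 7.90, 7.26, 7.29 and 8.04 in the otosphere samples, 7.78, 7.29 and 7.05 in CSE and 8.92 and 7.92 in ESCs. Its difference was 0.25, adjusted p = 0.776. Slc3a2, the partner of Slc7a5, differed by 1.03, adjusted p = 0.31. The glycine carrier Slc6a9 and the neutral carriers Slc38a2, Slc1a5 and Slc1a4 differed by 0.88, 0.68, 0.91 and -0.19, with adjusted p from 0.196 to 0.572. Slc1a4 was the most even of them, with an interval of -0.54 to 0.15.

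Of the 4 genes that restrain translation or TORC1, Eif4ebp1 was higher in otospheres. It encodes a repressor of cap-dependent translation and read 13.60, 11.97, 14.42 and 14.53 in the otosphere samples, 11.03, 10.22 and 11.23 in CSE and 15.17 and 15.18 in ESCs. The difference from CSE was 2.80 ± 0.58 (SE), adjusted p = 0.015, and ESCs were above every otosphere sample. Its adjusted p was 0.052 without CSE1 and 0.0575 without CSE2. Ppp1r15a (GADD34), the phosphatase subunit that restores eIF2, read 12.07, 11.60, 13.95 and 14.16 in the otosphere samples, 11.84, 11.62 and 13.59 in CSE and 11.53 and 11.79 in ESCs. CSE3 was near OS4-5 and OS6, CSE1 and CSE2 were near OS1-2 and OS3, and the interval of the difference was -1.02 to 2.21. Sesn2 and Ddit4, stress-induced inhibitors of TORC1, differed by 1.06, adjusted p = 0.14 and 0.84, adjusted p = 0.197.

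The secreted factors and the lipoprotein receptor of the set held 2 of the higher genes. Stc2, a glycoprotein secreted under stress, read 9.29, 8.15, 10.54 and 11.17 in the otosphere samples, 6.72, 6.07 and 6.91 in CSE and 7.96 and 8.96 in ESCs. It was 9.32-fold higher than in CSE (3.22 ± 0.66 (SE), adjusted p = 0.0149), with an adjusted p of 0.0549 without CSE1 and 0.0563 without CSE2. Vldlr, the very low density lipoprotein receptor, read 12.47, 12.03, 13.35 and 13.27 in the otosphere samples, 11.55, 11.76 and 10.68 in CSE and 8.04 and 7.92 in ESCs. The difference was 1.45 ± 0.38 (SE), adjusted p = 0.0403. When any one sample other than OS3 was left out, its adjusted p was 0.0517 to 0.148, and with slide as a block 0.0589. Its dimmer second probe gave 1.62 ± 0.48 (SE), adjusted p = 0.0677. Fgf21, a hormone made under nutrient stress, read 9.33, 7.40, 11.83 and 12.47 in the otosphere samples, 7.15, 6.85 and 7.70 in CSE and 6.35 and 4.94 in ESCs. OS3 lay within the CSE range whereas OS6 was 4.77 above the highest CSE sample, and the difference of 3.02 ± 1.09 (SE), adjusted p = 0.13 was not past the threshold.

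None of the 3 ER genes passed the test between otospheres and CSE. Hspa5, the main ER chaperone, read 15.79, 15.84, 15.98 and 15.55 in the otosphere samples, 15.99, 15.73 and 16.05 in CSE and 14.43 and 14.49 in ESCs. Otospheres and CSE overlapped, with a difference of -0.13 and an interval of -0.50 to 0.24, the narrowest of the set together with that of Slc1a4. Xbp1 read 15.27, 15.64, 14.78 and 14.07 in the otosphere samples, 14.21, 13.97 and 13.96 in CSE and 13.68 and 12.88 in ESCs. It ran opposite to most genes within the otospheres, with OS3 highest and OS6 lowest, and the difference was 0.90, adjusted p = 0.181. Its adjusted p was 0.0414 without OS6, 0.0449 with slide as a block and 0.0297 with replicate number as a block. In the last fit the otosphere values rest on OS1 to OS3, since the replicate numbers of OS4 to OS6 occur only once. The probe does not tell spliced from unspliced Xbp1 mRNA, as far as the files say. Herpud1, which serves degradation of ER proteins, was 12.34 ± 0.65 in otospheres, 11.57 ± 0.18 in CSE and 10.71 ± 0.22 in ESCs, a difference of 0.77, adjusted p = 0.204, with all otosphere samples above CSE.

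**Figure D3:**
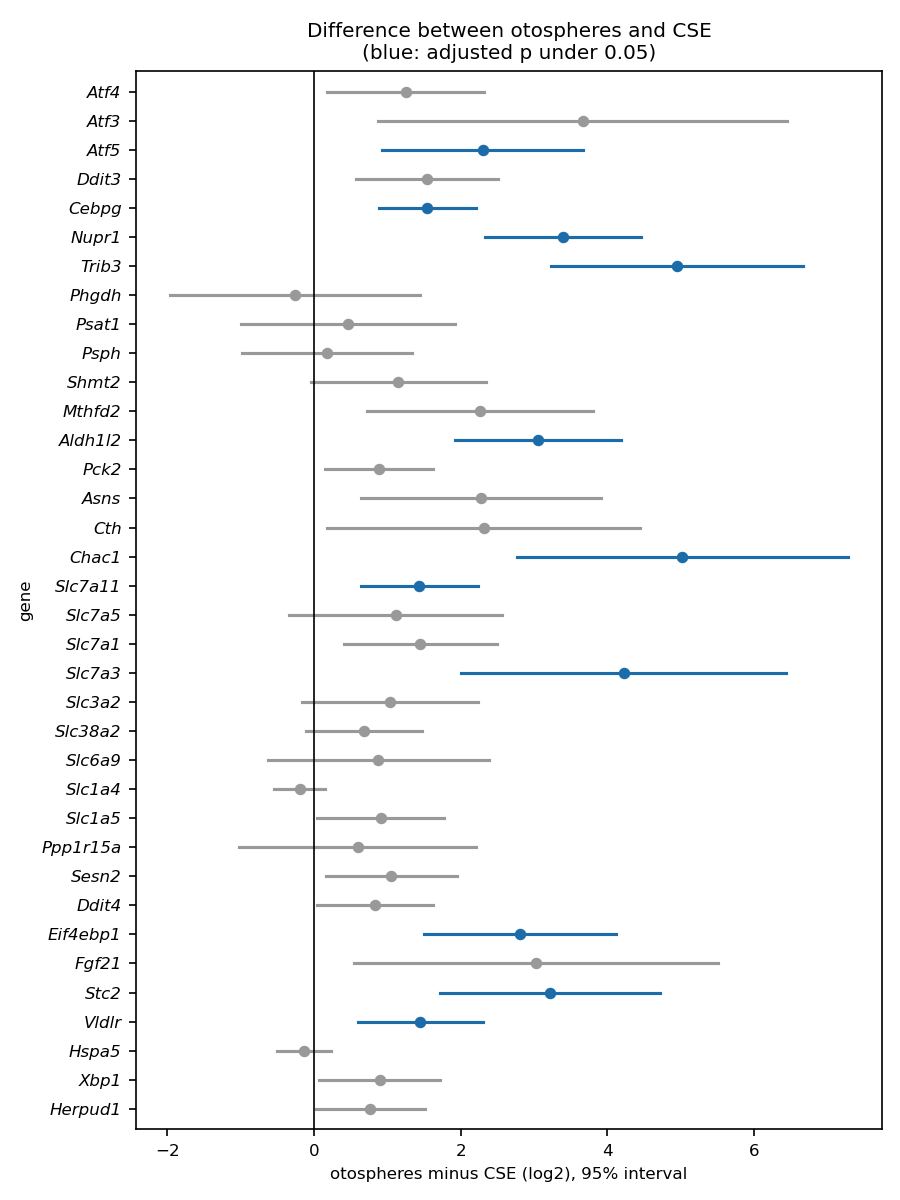
Otospheres minus CSE for each of the 36 genes on the log2 scale (points) with the 95% interval of the limma model (lines), ordered by role, the 11 genes with an adjusted p under 0.05 in blue. The largest values are those of Chac1 and Trib3, and Phgdh, Slc1a4 and Hspa5 lie just below 0.

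The otosphere samples differed among themselves. OS4-5 and OS6 were both above OS1-2 and OS3 for 31 of the 36 genes, against 32.3% of all genes, and both below for 1 (Xbp1), against 21.7%. OS3 was the lowest otosphere sample for 31 of the 36, against 40.8% of all genes. The mean of the 36 genes, each taken relative to its own mean over the 9 samples, was 0.47 in OS1-2, -0.50 in OS3, 1.51 in OS4-5 and 1.65 in OS6. It lay between -1.21 and -0.72 in CSE and between -0.31 and -0.01 in ESCs. OS3 was thus above every CSE sample by this measure but below both ESC lines.

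OS1 to OS3 and OS4 to OS6 lay on different slides, so within the otospheres the slide cannot be told apart from the culture, and 2 samples against 2 allow no exact permutation p below 0.33. When OS1-2 and OS3 alone were set against CSE, 8 of the 36 genes were higher and 0 lower, against 5.04% and 7.22% of all genes, and the median difference was 0.74. The 8 were Trib3, Chac1, Aldh1l2, Slc7a11, Cebpg, Nupr1, Stc2 and Xbp1 (1.41, adjusted p = 0.0303 for Xbp1). Atf5, Slc7a3, Vldlr and Eif4ebp1, past the threshold with all samples, did not pass in this set (adjusted p = 0.0698 to 0.218). When OS4-5 and OS6 alone were set against CSE, 29 were higher and 0 lower, against 8.25% and 9.51% of all genes, and the median was 2.01. Both fits leave the spread between the otosphere sets out of the error and were chosen after the data were seen. Trib3 differed from CSE by 3.64, adjusted p = 0.00456 in the first set and 6.25, adjusted p = 0.000177 in the second, and Chac1 by 3.35, adjusted p = 0.0271 and 6.70, adjusted p = 0.000272. Atf4 differed by 0.49, adjusted p = 0.601 and 2.01, adjusted p = 0.00858. The 7 genes not past the threshold in the second set were Atf3, Ddit4, Slc38a2, Slc1a4, Ppp1r15a, Hspa5 and Xbp1.

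Within slides, the difference between otospheres and CSE had a median of 0.71 on slide 1 (2 otosphere and 2 CSE samples) and 1.73 on slide 2 (2 otosphere samples and 1 CSE sample). It was above 0 for 30 and 34 of the 36 genes. The exceptions on slide 1 were Psat1, Phgdh, Psph, Slc6a9, Slc1a4 and Hspa5, and on slide 2 Slc1a4 and Hspa5. The slide 2 value was the larger for 31 genes, and the smaller for Atf3, Slc7a11, Slc1a4, Hspa5 and Xbp1. By role, the medians on slides 1 and 2 were 1.26 and 2.05 for regulators, 0.36 and 1.51 for serine and one-carbon genes, and 0.22 and 1.75 for transporters.

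**Figure D4:**
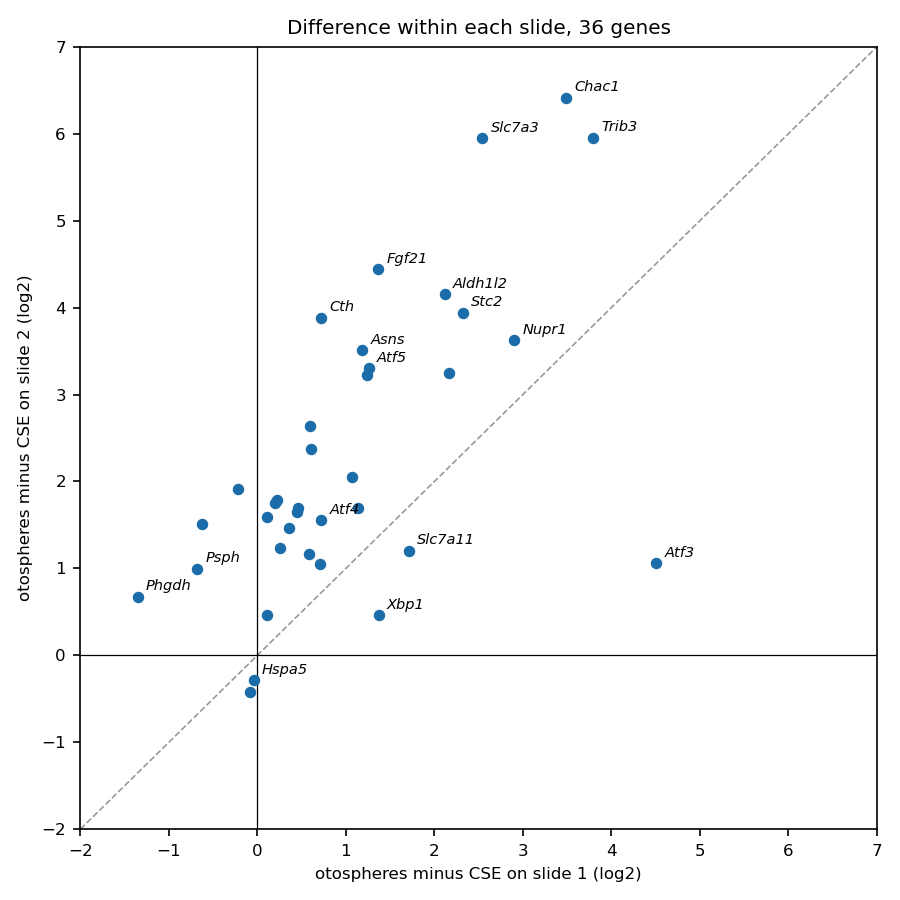
Otospheres minus CSE within slide 1 (horizontal) and within slide 2 (vertical) on the log2 scale for the 36 genes, with a dashed line where both are equal. Of the 36 points 31 lie above the line, and Atf3, Slc7a11 and Xbp1 lie clearly below it.

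Other gene groups also differed between the otosphere samples. The mean log2 signal of 12 proliferation genes was 11.97, 10.86, 10.12 and 8.90 in OS1-2, OS3, OS4-5 and OS6, that of 8 mesenchyme markers 12.75, 13.30, 11.96 and 10.11, and that of 10 hair cell markers 7.82, 7.23, 8.69 and 9.10. In CSE the proliferation mean was 11.13, 10.71 and 10.53, the mesenchyme mean 13.50, 13.20 and 13.003 and the hair cell mean 9.74, 9.60 and 10.02. Between otospheres and CSE, 0 of the 12 proliferation genes passed the limma test (0 also at an unadjusted p under 0.05), and of the 8 mesenchyme markers Thy1 was higher and Col1a1 lower. Proliferation and mesenchyme genes were thus lowest, and hair cell genes highest, in OS6, where the stress genes were also highest. Their part in the difference was not tested.

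Genes of neighbouring pathways were counted in the same way, and the shares over all genes (7.17% higher and 10.3% lower) apply to them too. Most of the higher counts lie near that share. Of 17 genes for the eIF2 kinases and related translation factors, 1 was higher in otospheres and 0 were lower. It was Ppp1r15b, the constitutive partner of the eIF2 phosphatase, which read 9.28, 9.18, 9.10 and 9.12 in the otosphere samples, 7.61, 7.04 and 7.72 in CSE and 9.02 and 8.88 in ESCs, a difference of 1.71 ± 0.19 (SE), adjusted p = 0.000755. None of the 4 kinases that start the response passed the test at the mRNA level. Eif2ak1 (heme), Eif2ak2 (double-stranded RNA) and Eif2ak3 (ER stress) differed by 0.27, 0.41 and 0.27 with adjusted p of 0.507 to 0.792. Eif2ak4 (GCN2, amino acid shortage) differed by -0.68, adjusted p = 0.0543.

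Of 21 aminoacyl tRNA synthetases, which charge tRNAs and include known ATF4 targets, 2 were higher and 0 lower, with a median difference of 0.58. The larger rise was in Mars1 (1.20 ± 0.31 (SE), adjusted p = 0.0398), for methionine. Of 25 ER chaperones and ER degradation genes, 2 were higher and 1 was lower, with a median of -0.15. Derl2, a channel component for degradation, rose most (1.01, adjusted p = 0.00809), and Pdia4, a disulfide isomerase, was lower (-0.86, adjusted p = 0.0356). Of 23 further genes for one-carbon, serine, glycine and related amino acid use, 4 were higher and 2 lower (median -0.06). The largest rise was in Gclm, the modifier subunit of glutathione synthesis (1.70, adjusted p = 0.0196), and the largest fall in Prodh, proline dehydrogenase (-1.40, adjusted p = 0.00195).

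Of 20 other amino acid transporters, 1 was higher and 6 were lower (median -0.21). Slc6a14, a broad neutral and cationic carrier, was higher (1.22, adjusted p = 0.0288). Slc38a5, a glutamine carrier, read 4.96, 4.88, 4.87 and 5.13 in the otosphere samples, 8.89, 7.85 and 8.65 in CSE and 9.57 and 8.23 in ESCs. None of the otosphere arrays had it well above background, and CSE was at least 10.9-fold higher (adjusted p = 0.000451). Of 15 genes for mitochondrial stress and the route from Sestrins to TORC1, 2 were higher and 1 was lower (median 0.16). Gdf15, a secreted stress cytokine, read 12.36, 10.35, 13.88 and 15.26 in the otosphere samples, 5.98, 5.41 and 6.51 in CSE and 10.63 and 8.61 in ESCs. Its difference of 6.998 ± 1.04 (SE), adjusted p = 0.0032 was larger than that of any of the 36 genes, and its otosphere samples took the same order as those of Trib3. Sesn1, a Sestrin chiefly known as a p53 target, was lower in otospheres (-1.56, adjusted p = 0.0068).

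Against ESCs, 10 of the 36 genes were higher and 2 lower in otospheres, where 18.4% and 20.4% of all genes were. This comparison shares the otosphere samples with the one above. Vldlr (4.80, adjusted p = 7.79e-05), Nupr1 (4.69, adjusted p = 0.000275) and Atf5 (4.16, adjusted p = 0.00192) had the largest differences among genes well above background in both groups. Slc6a9, Herpud1, Hspa5 and Xbp1 were higher by 3.06, 1.63, 1.33 and 1.66, so all 3 ER genes were above ESCs. Aldh1l2 and Slc7a11 were not well above background in either ESC line. Otospheres were at least 13.6-fold higher for Aldh1l2 (adjusted p = 0.00118) and at least 3.18-fold higher for Slc7a11 (adjusted p = 0.00256). Fgf21, well above background in 1 of the 2 ESC lines, was higher by 4.61, adjusted p = 0.0221. Slc1a5, a glutamine carrier, and Slc1a4 were the lower genes (-2.87, adjusted p = 0.00121, and -0.81, adjusted p = 0.0074). Trib3, Chac1 and Asns did not pass here, with differences of 1.52, 1.74 and -0.24 and intervals of -0.42 to 3.46, -0.82 to 4.29 and -2.10 to 1.61. Without OS3, 17 genes were higher, and without ES2, 6 were. Of all probes, 5796 were higher with all samples, 5805 without OS3 and 4920 without ES2.

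Between the samples that had not been cultured as spheres, 2 of the 36 genes were higher and 9 were lower in CSE than in ESCs, against 20.9% and 20.0% of all genes. Vldlr (3.35, adjusted p = 0.000657) and Hspa5 (1.46, adjusted p = 0.00062) were the higher ones. The lower ones were the carriers Slc7a3 (-6.24, adjusted p = 0.0037), Slc1a5 (-3.79, adjusted p = 0.000376), Slc38a2 and Slc1a4, the enzymes Cth (-4.22, adjusted p = 0.0208), Mthfd2 and Shmt2, together with Eif4ebp1 (-4.35, adjusted p = 0.00157) and Trib3 (-3.43, adjusted p = 0.0198). Of these 9 genes, Slc7a3, Trib3 and Eif4ebp1 were also higher in otospheres than in CSE, a pair of comparisons that share the CSE samples. Without ES1, ES2, CSE1, CSE2 or CSE3, the number of lower genes was 3, 4, 5, 4 and 6, and without OS3, which enters through the shared spread, it was 15 (with 4 higher). Of all probes, 7493 were lower with all samples. In these fits, in the same order, 6775, 6546, 6021, 6293 and 6516 were, and 7650 without OS3. Over the 3 groups together, 21 of the 36 genes passed the F-test, against 48.7% of all genes.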

How the data were processed

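Scanner files of 11 single-colour arrays, as deposited, held, on a linear scale, a median intensity per spot and another for the local background (Feature Extraction 10.7.3.1, no normalization between arrays), with a processed intensity and flags. A second file deposited by the authors gives log2 values, background-corrected and quantile-normalized in limma and filtered on dim probes, which served as an alternative. Intensities were corrected by normexp with an offset of 16, put on the log2 scale and quantile-normalized across 11 arrays with limma 3.58.1 (R 4.3.3). Control and outlier spots were left out and spots of a probe were averaged. A probe was kept when it was 10% brighter than the 95th percentile of 308 negative controls on at least 2 arrays (47997 of 55681). Names came from RefSeq transcripts (GRCm38.p6) for 26762 probes. Each gene was represented by its brightest probe over all samples.

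Samples were grouped by their labels. The pairs OS1 and OS2, and OS4 and OS5, were averaged, since the robust SD of their differences among 17210 bright probes was 0.946 and 0.433 of the spot noise, against 1.72 or more for the other pairs of a group. A limma model of the 3 group means (empirical Bayes, 6 residual degrees of freedom) was tested two-sided with p-values adjusted by Benjamini-Hochberg across all kept probes at a threshold of 0.05. A fold is given as a bound where a probe was not well above background throughout a group, against the higher of the probe's own signal and the lowest signal among probes well above background on that array. The number of arrays limits the precision. Alternatives were the offset, scaling, filter, counting of arrays, the probe of a gene, slide or replicate number as a block, a test without empirical Bayes, and leaving out each sample.

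The 36 genes and all lists were chosen with earlier results of these data known. Values per sample are given for the genes past the threshold between otospheres and CSE and for Atf4, Ddit3, Trib3, Chac1, Asns, Psat1, Phgdh, Slc7a11, Slc7a3, Slc7a5, Ppp1r15a, Hspa5, Xbp1 and Fgf21. For the pathway lists the largest rise, the largest fall and the eIF2 kinases are named. Pycr1 and Cd68 were not matched. Motif searches used Python 3.11.15 and pandas 2.3.3.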

Additional observations from a re-analysis of the deposited data

Results flagged for a closer look

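Slc38a2 in OS3 stood apart from the other 3 otosphere samples, with a gap to the nearest of them that was 0.945 of the group's range (11.89 in OS3 against 12.82 to 12.87). About 1 group in 20 is expected to be marked in this way by chance, and 36 genes were examined. Phgdh and Psph, of the serine pathway, differed between otospheres and CSE in opposite directions on the slides. For Phgdh the difference was -1.35 on slide 1 and 0.67 on slide 2, and for Psph it was -0.68 and 1.00, with every otosphere sample below every CSE sample on slide 1 and above it on slide 2. The difference between the slides was not tested.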

How the results depend on the processing

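Of 864 values of single genes between otospheres and CSE under the alternatives, 776 were counted as unchanged. Of the others, 43 passed the threshold newly, 36 lost it, and 8 moved by more than the spread between samples. In addition, 1 was counted as reversed, since it changed sign and passed the threshold (Phgdh, 1.00 with OS4-5 and OS6 as the only otospheres). A change of sign short of the threshold was not counted, and values within a slide had no threshold. A change of size on the same side of the threshold was not counted either, such as that of Pck2 from 0.89 to 0.09 in the authors' log2 table. Uncounted changes of sign included Psat1, Psph, Slc6a9 and Ppp1r15a with replicate number as a block (-0.46, -0.59, -0.07 and -0.43). In that fit only OS1 to OS3 inform the otosphere values. With OS1-2 and OS3 as the only otospheres these 4 genes were also below 0 (-0.67, -0.73, -0.27 and -0.51). Phgdh also changed sign without OS3 (0.47). With one sample left out, the number of genes higher in otospheres than in CSE was 5 to 22, that of probes 1281 to 2629 (2321 with all samples) and that of lower probes 1664 to 3340 (2973 with all samples). The genes higher than in ESCs numbered 6 to 17, those of CSE higher than ESCs 2 to 4, and those lower 3 to 15. Scaling each array's processed intensity by its 75th percentile, which moved the median of all probes between otospheres and ESCs to -0.28, gave 4 genes lower in otospheres and 14 lower in CSE than in ESCs. With every array as a sample, 3682 probes were higher in otospheres than in CSE. With OS4-5 and OS6 as the only otospheres, 29 genes were higher than in CSE. Slide as a block gave 5 genes higher in CSE than in ESCs. Without empirical Bayes, 12 genes passed the F-test. The replicate number did not pair the samples (correlations of 0.36, -0.34 and -0.39 between same-numbered otosphere and CSE deviations). A replicate block gave 12 genes higher in otospheres than in CSE, 5 lower than in ESCs, and 6 higher and 14 lower in CSE than in ESCs. The replicate numbers of OS4, OS5 and OS6 occur only once, so the otosphere values of that fit rest on OS1 to OS3.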
